A study of Mus musculus with 6 samples.

Results

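The mRNAs of the respiratory chain subunits were followed through libraries labelled as ovary from mice of high and low litter size. They form 98 rows of a table of 36727 genes, with 97 distinct symbols, and 85 rows are encoded in the nuclear genome and 13 in the mitochondrial genome. Members were chosen by a rule on names, with earlier results of these data known. They were the protein-coding genes whose symbols start with mt- and the Ndufa, Ndufb, Ndufc, Ndufs and Ndufv subunits of complex I. With them were Sdha to Sdhd of complex II and the Uqcr genes and Cyc1 of complex III. The Cox4i to Cox8 families of complex IV and the Atp5 genes of ATP synthase, also called complex V, completed the set. Cox7a1, Cox8b and the Ndufaf assembly factors were left out by the rule. The nuclear rows were 36 of complex I, 4 of complex II, 9 of complex III, 18 of complex IV and 18 of complex V, with Ndufa4 and its paralogue Ndufa4l2 counted in complex IV, to which Ndufa4 belongs despite its name. The mitochondrial genes were 7 of complex I, 1 of complex III, 3 of complex IV and 2 of complex V.

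The high litter size group held 3 libraries (replicates 1, 3 and 4) and the low litter size group 3 (replicates 1, 2 and 5), each of ovary taken in the estrous phase from adult females, 135 to 140 days old, of an F4 inbred Swiss albino strain. Litter size is the only label that differs between the groups, and no genotype or treatment is given for either. Polyadenylated RNA was sequenced, with 17620903 to 24758222 estimated counts per library, and the design text asks which ovarian genes relate to fitness. Nothing in the labels says that the libraries came from separate animals, so p-values reflect only how these samples spread, and that spread may be technical.

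The label of ovary was checked against marker genes. Fshr, the granulosa cell receptor for FSH, had 0 and 0 counts in high-litter replicates 1 and 3 and 0.0533 CPM in low replicate 2, whereas high replicate 4 had 3.97 CPM and low-litter replicates 1 and 5 had 1.5018 and 2.61 CPM. CPM are counts per 1000000 of the TMM-normalized library total, and 3 counts, the limit that a count of 0 allows, are 0.170 CPM in the smallest library before TMM scaling. The egg coat gene Zp2 was at 0 in high replicate 1 and low replicate 2. The 6 luteal and steroidogenic markers summed to 180, 215 and 10376 CPM in high-litter replicates 1, 3 and 4, and to 780, 86.5 and 3476 CPM in low-litter replicates 1, 2 and 5. The 6 granulosa markers summed to 24.2, 13.5 and 344 CPM and the 6 oocyte markers to 1.07, 3.18 and 64.9 CPM in high-litter replicates 1, 3 and 4. In low-litter replicates 1, 2 and 5 the sums were 254, 23.8 and 218 CPM for granulosa and 12.997, 2.77 and 44.7 CPM for oocyte markers. Markers of these ovarian cells were thus lowest in high-litter replicates 1 and 3 and low replicate 2, where Foxl2 (21.4, 10.3 and 21.6 CPM) made up most of the granulosa sum. The data of these 3 libraries go against their label of ovary, and whether they hold ovary is in doubt. High replicate 3 also stood apart in fat cell markers, and fold changes without it are given beside most of those it moved.

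The respiratory chain sits in the inner mitochondrial membrane. Complexes I and II pass electrons from NADH and succinate to ubiquinone, complex III hands them to cytochrome c, complex IV reduces oxygen, and ATP synthase uses the proton gradient that results. Complex II is encoded in the nucleus throughout, while the other complexes join nuclear subunits to a few made inside the organelle, so their mRNAs come from both genomes. In the ovary, mitochondria of steroid-making cells also carry out the first step of steroid synthesis, and oocytes hold many mitochondrial genomes, while brown fat and muscle are tissues rich in respiratory chain.

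The mitochondrial genes are printed first where their sequence bears on the measurement. mt-Atp8 and mt-Nd4l, whose groups are described below, each overlap the next gene on the same bicistronic mRNA, and reads within the overlap could come from either gene. Both sequences are from GENCODE M21 transcripts on GRCm38, plus strand, and capitals mark the bases shared with mt-Atp6 (43 bases, chrM:7927-7969) and with mt-Nd4 (7 bases, chrM:10167-10173).
mt-Atp8 chrM:7766-7969: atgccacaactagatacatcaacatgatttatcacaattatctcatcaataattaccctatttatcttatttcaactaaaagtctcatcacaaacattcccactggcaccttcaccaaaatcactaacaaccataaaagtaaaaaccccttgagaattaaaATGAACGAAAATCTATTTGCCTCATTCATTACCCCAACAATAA
mt-Nd4l chrM:9877-10173: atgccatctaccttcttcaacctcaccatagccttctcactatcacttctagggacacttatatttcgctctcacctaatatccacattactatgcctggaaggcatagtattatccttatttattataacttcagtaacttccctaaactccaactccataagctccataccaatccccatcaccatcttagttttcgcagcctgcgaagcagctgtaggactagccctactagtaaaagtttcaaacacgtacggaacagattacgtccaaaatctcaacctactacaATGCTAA

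Other mitochondrial genes have copies in the nuclear genome that reads within the shared stretch cannot tell from them. The first 180 bases of mt-Co2, a core subunit of complex IV, are shown beside the matching stretch of Gm28661, a pseudogene on chromosome 1 (minus strand), because this pair divides its counts in every library. The 2 stretches are identical, and over the 681 bases that could be aligned no base differed.
mt-Co2 chrM:7013-7192: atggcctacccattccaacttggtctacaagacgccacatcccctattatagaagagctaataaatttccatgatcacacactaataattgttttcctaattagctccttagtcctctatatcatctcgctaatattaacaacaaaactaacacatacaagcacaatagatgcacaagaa
Gm28661 chr1:24615386-24615565: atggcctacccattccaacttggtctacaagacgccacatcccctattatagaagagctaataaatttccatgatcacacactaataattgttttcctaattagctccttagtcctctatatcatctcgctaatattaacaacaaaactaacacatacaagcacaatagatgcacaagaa

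High was compared with low litter size over 16455 genes, of which 94 were members: 94 of 98 rows passed the filter on low counts, 81 of 85 nuclear and 13 of 13 mitochondrial. By the quasi-likelihood test of edgeR with Benjamini-Hochberg adjustment, 0 of 94 members passed at 0.05, where 0.00608% of all genes did (1 gene). DESeq2 passed 0 members, with 2.15% of all genes called higher and 4.08% called lower, and the edgeR likelihood ratio test passed 0 members with 3.83% of all genes called. At an unadjusted p under 0.05, 3 of 94 members were reached (3.19%, against 14.4% of all genes): Ndufs5, mt-Nd4l and mt-Atp8, with values higher in high litter size (6.56% of all genes in that direction) and 0 members lower (7.82%). The 3 high libraries lay above the 3 low libraries for 4 members, Ndufs5, Atp5s, mt-Nd4l and mt-Cytb (4.26%, against 8.75% of all genes), and below them for 0 members (10.8%). These counts moved with single libraries. Without high replicate 1, 14 members had values higher in high litter size at an unadjusted p under 0.05 (7.57% of all genes) and 22 lay above without overlap (14.7%). Without high replicate 4 these counts were 11 (8.1%) and 10 (15%), and without high replicate 3 they were 1 (5.32%) and 5 (14.5%). Leaving out low replicate 1, 2 or 5 gave 0, 0 and 1 members by p (2.47, 4.2 and 4.52%) and 5, 10 and 18 without overlap (11, 14.1 and 14.6%).

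Positive log2 fold changes, high minus low, were found in 89 of 94 members, against 55.3% of all genes, and none of them passed the test. The median log2 fold change was 0.47 for nuclear and 0.76 for mitochondrial members, beside 0.068 for all genes tested. For nuclear members the direction rested on a single library. High replicate 3 was the highest of the 6 libraries for 75 of 81 nuclear and 13 of 13 mitochondrial members, where it was the highest for 27.7% of all genes. The median of log2 CPM, centred on each gene's mean, was -0.26, 1.07 and -0.31 for nuclear members in high-litter replicates 1, 3 and 4, and -0.27, -0.24 and 0.036 in low-litter replicates 1, 2 and 5. Without high replicate 3, positive values were left in 22 of 81 nuclear members, and the nuclear median was -0.13. Mitochondrial members were positive in 11 of 13, with a median of 0.26. Without the 3 libraries lowest in ovarian markers, an alternative chosen after the values were seen, high replicate 4 stood against low-litter replicates 1 and 5. Positive values were then found in 18 of 81 nuclear members (median -0.30) and 13 of 13 mitochondrial members (median 0.61), beside 47.3% of all genes (median -0.040), with a single library on the high side and no test.

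**Figure D1:**
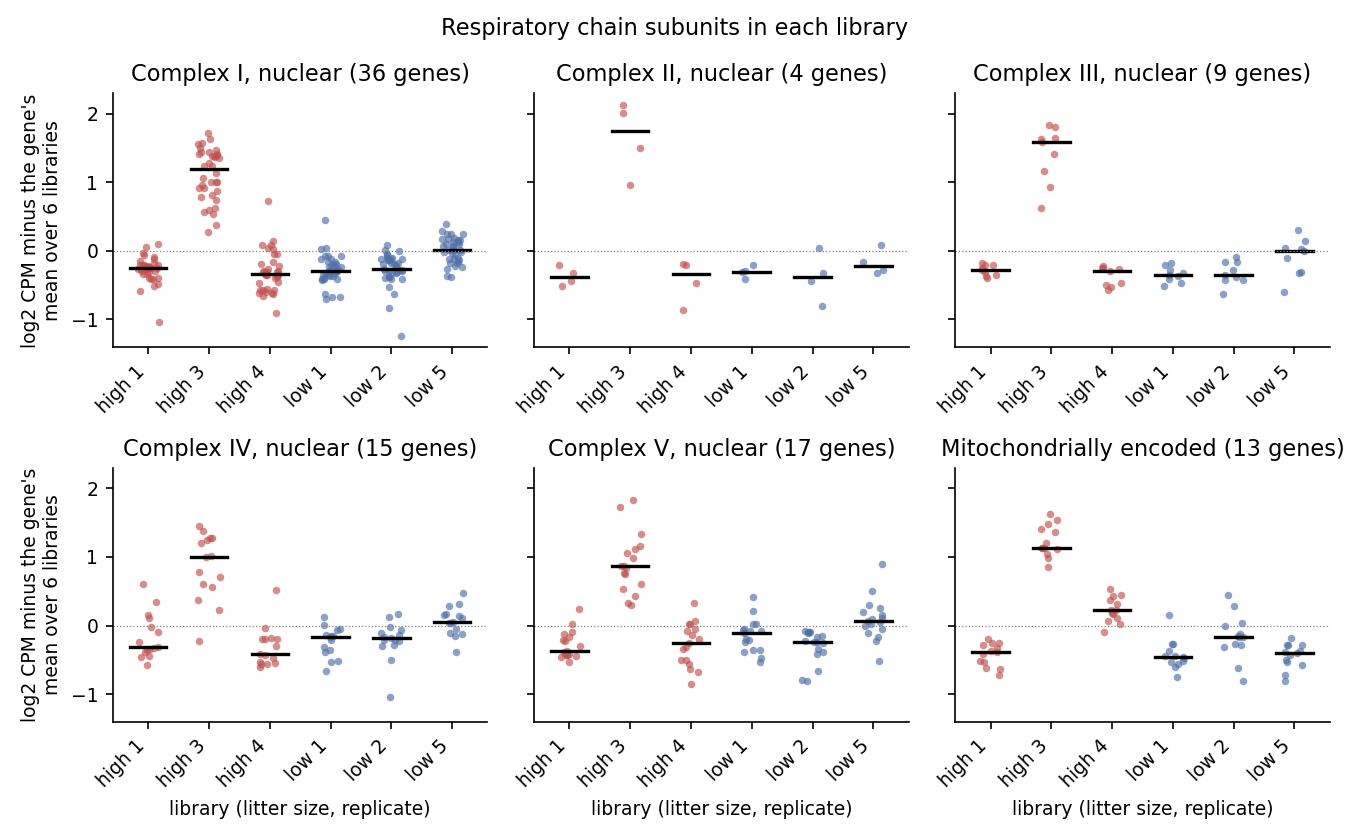
Each point is a subunit gene in a library, as log2 CPM minus that gene's mean over the 6 libraries (vertical axis), with high litter size in red left of low litter size in blue and bars at the median of each library. High replicate 3 lies above the other libraries in every panel, with medians from 0.87 in complex V to 1.76 in complex II, and in the mitochondrial panel high replicate 4 has the second highest median, at 0.22.

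Complex I, the NADH dehydrogenase, had 36 nuclear members, with a median log2 fold change of 0.56 and positive values in 34. Its core subunit Ndufs1, which carries iron-sulphur clusters (chromosome 1, 63143596 to 63176833, minus strand), had 95.6, 375.5 and 113.1 CPM in high-litter replicates 1, 3 and 4, and 95.6, 95.4 and 112.3 CPM in low-litter replicates 1, 2 and 5 (log2 fold change 0.95, SE 0.53, edgeR adjusted p = 0.471, or 0.043 without high replicate 3). Ndufv1, which binds NADH and FMN, had 81.1, 225.2 and 68.8 CPM against 68.3, 66.6 and 81.7 CPM in the same order (0.79, or 0.053 without that library). In both genes high replicate 3 was above every other library, and the other high libraries lay within or close to the low range. The 7 core subunits of the nuclear genome had a centred median of 1.35 in high replicate 3, and the other 29 subunits 1.07.

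Several other members of complex I departed from that pattern. Ndufs5, an accessory subunit facing the intermembrane space (chromosome 4, 123712710 to 123718202), had 26.7, 46.9 and 25.4 CPM in high-litter libraries and 15.6, 22.7 and 20.5 CPM in low-litter libraries. Its groups did not overlap, at a log2 fold change of 0.75 (SE 0.31, unadjusted p = 0.0461, edgeR adjusted p = 0.339), or 0.41 without high replicate 3, and 26.5% of its 31-base words are shared with the pseudogene BC002163. Ndufc1, a small membrane subunit, had the highest fold change of the complex: 8.08, 54.9 and 27.7 CPM in high-litter and 14.4, 6.98 and 16.8 CPM in low-litter libraries (1.24, SE 0.68, edgeR adjusted p = 0.458, or 0.48 without high replicate 3). Here high replicate 4 was raised as well, and high replicate 1 lay within the low range. Ndufa11, an accessory membrane subunit at the contact with complex III, had the lowest: 31.2, 57.1 and 30.6 CPM in high-litter and 64.3, 49.7 and 61.4 CPM in low-litter libraries (-0.56, SE 0.30, edgeR adjusted p = 0.437). It was lower in high-litter replicates 1 and 4 than in any low library, and without high replicate 3 the value was -0.92 (unadjusted p = 0.00366, edgeR adjusted p = 0.258), the largest departure from 0 of any member in that fit. Ndufab1, the mitochondrial acyl carrier protein, and Ndufa10 followed the pattern of Ndufs1, with 0.98 and 1.06 (edgeR adjusted p = 0.402 and 0.426), or 0.25 and 0.15 without high replicate 3.

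Complex II, succinate dehydrogenase, had the highest median of the complexes, 0.99 over 4 members, and the widest gap between libraries. Sdha, the flavoprotein that oxidizes succinate (chromosome 13, 74322254 to 74350280, minus strand), had 288.0, 1445.9 and 181.3 CPM in high-litter libraries and 266.6, 244.4 and 265.3 CPM in low-litter libraries. The highest and the lowest library were both of high litter size, 7.98-fold apart, while the low libraries lay within 1.09-fold of each other (1.30, SE 0.76, edgeR adjusted p = 0.485, and -0.14 without high replicate 3). Sdhc, a membrane anchor (chromosome 1, 171127165 to 171150603), had the highest log2 fold change of all members: 66.0, 331.6 and 71.2 CPM against 62.3, 47.2 and 68.1 CPM in high and low libraries (1.40, SE 0.65, edgeR adjusted p = 0.390), or 0.21 without high replicate 3. Sdhb, the iron-sulphur subunit, had 79.7, 322.8 and 82.4 CPM in high-litter and 92.3, 90.8 and 120.8 CPM in low-litter libraries (0.67), and Sdhd, the other anchor, had 0.35. Without high replicate 3 these were -0.32 and -0.21. The subunits of the complex did not keep 1 ratio: Sdha counts were 3.61, 4.48 and 2.20 times those of Sdhb in high-litter libraries and 2.89, 2.69 and 2.20 times in low-litter libraries.

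Complex III, the cytochrome bc1 complex, had positive values in 9 of 9 nuclear members and a median of 0.89. Uqcrfs1, the Rieske iron-sulphur protein (chromosome 13, 30540308 to 30545362, minus strand), had 95.9, 439.5 and 102.4 CPM in high-litter and 89.4, 110.5 and 81.3 CPM in low-litter libraries (1.18, SE 0.62, edgeR adjusted p = 0.437). Cyc1, cytochrome c1, had 79.5, 338.4 and 68.3 CPM in high-litter and 77.2, 71.9 and 78.2 CPM in low-litter libraries (1.10, SE 0.62, edgeR adjusted p = 0.471). Uqcrc1, a core protein, had 62.7, 227.8 and 49.0 CPM against 60.02, 59.88 and 58.03 CPM (0.93), so that its low libraries differed by 1.03-fold. High replicate 3 was the highest library for all 3 genes, and without it the values were 0.081, -0.036 and -0.088. Uqcrh, the hinge protein, had the lowest fold change of the complex, with 119.3, 207.3 and 115.7 CPM in high-litter and 118.8, 126.1 and 138.1 CPM in low-litter libraries (0.21).

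Complex IV, cytochrome c oxidase, had 15 of 18 nuclear members tested, with a median of 0.45 and positive values in 14. Cox4i1, a regulatory subunit in most tissues (chromosome 8, 120668222 to 120674207), had 215.8, 596.6 and 148.8 CPM in high-litter and 152.4, 189.7 and 196.9 CPM in low-litter libraries (0.83, SE 0.52, edgeR adjusted p = 0.512, or 0.021 without high replicate 3). Cox5a had 51.0, 161.4 and 48.2 CPM against 59.96, 73.2 and 51.3 CPM (0.50, or -0.31 without that library). Cox7a2l, a paralogue of Cox7a2 that joins complexes III and IV in supercomplexes, went another way, with 136.3, 104.4 and 119.2 CPM in high-litter and 123.0, 137.0 and 118.4 CPM in low-litter libraries (-0.072, SE 0.19, edgeR adjusted p = 0.892). It was the only tested member at its lowest in high replicate 3 (22.8% of all genes were), and its share of the counts of Cox7a2l and Cox7a2 together was 72.8, 42.8 and 67.9% in high-litter and 66.4, 69.8 and 61.2% in low-litter libraries. Cox6b1, a subunit at the dimer contact, had 0.41 with all libraries and -0.43 without high replicate 3 (unadjusted p = 0.0443, edgeR adjusted p = 0.390). Cox6c, a small membrane subunit, had 0.35, or 0.12 without high replicate 3.

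The paralogues of complex IV that are known from other tissues or from low oxygen were minor forms here. Cox4i2, the form of lung and low oxygen, took 0.471, 0.386 and 0.538% of Cox4i1 plus Cox4i2 counts in high-litter libraries and 0.789, 0.392 and 0.512% in low-litter libraries. Cox6b2, known from testis, took 5.32, 1.30 and 3.29% of the Cox6b pair in high-litter and 1.99, 2.53 and 2.58% in low-litter libraries. Ndufa4l2, which low oxygen is known to induce, had 4.04, 4.12 and 4.58 CPM in high-litter and 1.96, 1.49 and 4.44 CPM in low-litter libraries (0.68, SE 0.50, edgeR adjusted p = 0.574), and high replicate 3 was not raised. Ndufa4 itself had 99.9, 242.2 and 129.4 CPM against 128.7, 146.4 and 184.4 CPM (0.037), a value whose sign turned with the scaling. Cox6a1, Cox7a2, Cox7b and Cox8a, the forms of most tissues, had 0.62, 0.33, 0.10 and 0.46, and each was negative without high replicate 3. Their partners Cox6a2 (a heart and muscle form), Cox7b2 and Cox8c had 6, 2 and 0 counts over the 6 libraries and were not tested. So was a second Atp5o row, with 1 count, which shares 94% of its 31-base words with other genes.

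ATP synthase had 17 of 18 nuclear members tested and the lowest median of the complexes, 0.37, with positive values in 15. Atp5b, the catalytic beta subunit (chromosome 10, 128083273 to 128090391), was the nuclear member of highest level per transcript length, at 640 CPM per kb. It had 871.6, 3495.1 and 688.2 CPM in high-litter and 674.0, 615.4 and 1010.0 CPM in low-litter libraries (1.14, SE 0.68, edgeR adjusted p = 0.494), with low replicate 5 second, and 0.024 was left without high replicate 3. Atp5a1, the alpha subunit that pairs with it in the catalytic head, had 312.2, 806.8 and 316.0 CPM against 281.4, 309.0 and 321.4 CPM (0.65, or 0.046 without that library). Atp5b counts were 2.79, 4.33 and 2.18 times those of Atp5a1 in high-litter and 2.40, 1.99 and 3.14 times in low-litter libraries, so that the pair did not move in a fixed ratio. Atp5s, coupling factor B, had 7.77, 8.86 and 8.25 CPM in high-litter and 6.18, 4.85 and 4.52 CPM in low-litter libraries (0.68, SE 0.29, edgeR adjusted p = 0.361), the groups did not overlap, and 0.63 was left without high replicate 3.

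The c ring of ATP synthase is encoded by 3 genes that give the same mature protein. With counts given to pseudogenes left out, Atp5g3 gave 69.9, 80.8 and 71.4% of their counts in high-litter libraries and 66.5, 75.2 and 60.9% in low-litter libraries. Atp5g1 had 30.5, 54.2 and 41.5 CPM in high-litter and 51.0, 25.3 and 82.1 CPM in low-litter libraries (-0.33, SE 0.44, edgeR adjusted p = 0.776), with low replicate 5 highest, and 0.14 without it. Atp5g2 had 22.9, 28.3 and 12.5 CPM against 30.2, 21.3 and 25.1 CPM (-0.27). Atp5g1 and Atp5g2 are 2 of the 5 members with a negative log2 fold change, beside Ndufa11, Cox7a2l and Ndufc2 (-0.0011). Of the counts of Atp5g2 and its pseudogene Gm10175, the pseudogene was given 83.9, 80.5 and 88.8% in high-litter and 81.0, 85.7 and 85.9% in low-litter libraries, so the level of Atp5g2 is uncertain. Together they had 2789, 2323 and 2207 counts in high-litter and 2745, 2807 and 4557 in low-litter libraries. Atp5g3 had 2423, 5575 and 2677 counts against 2791, 2646 and 4283. Which of the genes gave most of the c ring counts is therefore not settled in every library.

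**Figure D2:**
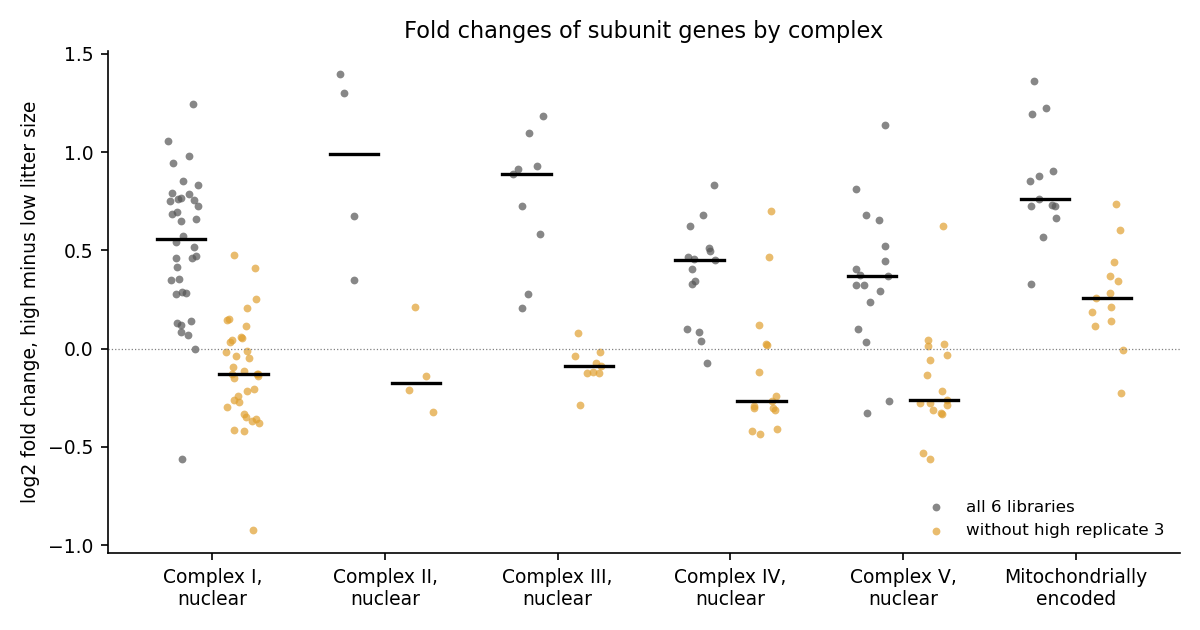
Each point is the log2 fold change of a subunit gene, high minus low litter size, by complex and genome, with all 6 libraries (grey) and without high replicate 3 (orange), and bars mark medians. Nuclear medians run from 0.37 to 0.99 with all libraries and from -0.27 to -0.088 without that library, while the mitochondrial median is 0.76 and 0.26.

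The order of nuclear complexes by median was thus II, III, I, IV and V (0.99, 0.89, 0.56, 0.45 and 0.37). Without high replicate 3 the medians were -0.17, -0.088, -0.13, -0.27 and -0.26. Leaving out any other library kept the nuclear median between 0.43 and 0.71. Without high replicate 3, 20 members lay lower in the 2 remaining high libraries than in the 3 low libraries, beside 16.2% of all genes, and 5 lay higher, beside 14.5%. Low replicate 5 was the second highest for 51 of 81 nuclear members, high replicate 4 the lowest for 33 of 81 (18.6% of all genes) and high replicate 1 for 18 of 81 (16.1%). For second place the share over all genes was not computed. The highest library was a median 2.81-fold above the lowest within the high group (all genes 1.82-fold) and 1.32-fold within the low group (all genes 1.49-fold).

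The 13 mitochondrial mRNAs stood at a median of 2556 CPM per kb of transcript, from 616 (mt-Nd3) to 12332 (mt-Co1), where the nuclear members had a median of 112. mt-Co1, the catalytic subunit of complex IV (chrM, 5328 to 6872), had 13366, 38055 and 20501 CPM in high-litter and 12853, 16103 and 13443 CPM in low-litter libraries (0.76, SE 0.65, edgeR adjusted p = 0.637, or 0.26 without high replicate 3). High replicate 3 was highest and high replicate 4 second, and high replicate 1 lay within the low range. This order, with high replicate 4 second, held for 11 of 13 mitochondrial members and for 10 of 81 nuclear members, and its share over all genes was not computed. mt-Cytb, cytochrome b of complex III (chrM, 14145 to 15288), had 4563, 12573 and 6181 CPM in high-litter and 3681, 4543 and 4460 CPM in low-litter libraries, without overlap (0.88, SE 0.54, edgeR adjusted p = 0.506, or 0.34 without high replicate 3).

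mt-Nd4l, the smallest subunit of complex I made in the organelle, had the smallest p of the members. It had 554, 1860 and 866 CPM in high-litter and 379, 415 and 482 CPM in low-litter libraries, and the groups did not overlap (1.36, SE 0.48, unadjusted p = 0.0267, edgeR adjusted p = 0.304). Without high replicate 3 the value was 0.74 (unadjusted p = 0.0451, edgeR adjusted p = 0.392). As a share of all mitochondrially encoded counts, mt-Nd4l took 1.64, 1.86 and 1.68% in high-litter and 1.16, 0.987 and 1.43% in low-litter libraries, again without overlap, which held for no other of the 13 genes. mt-Nd4, which is translated from the same mRNA, took 8.11, 7.73 and 7.75% in high-litter and 7.47, 8.69 and 7.81% in low-litter libraries.

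mt-Atp8, a small membrane subunit of ATP synthase, had 200, 696 and 336 CPM in high-litter and 179, 143 and 204 CPM in low-litter libraries (1.23, SE 0.47, unadjusted p = 0.0368, edgeR adjusted p = 0.326). High replicate 1 lay under low replicate 5, so its groups overlapped, and 0.60 was left without high replicate 3. mt-Atp6, its partner on the mRNA and the proton channel, had 2438, 5896 and 4708 CPM against 2366, 3229 and 2303 CPM (0.72, or 0.44 without that library). mt-Nd6 is the only member transcribed from the other strand, and its human counterpart is known to lack a stable poly(A) tail. It had 300, 896 and 564 CPM in high-litter and 320, 387 and 357 CPM in low-litter libraries (0.72, or 0.28 without high replicate 3), and it shares 14 bases with mt-Nd5 on the opposite strand (chrM, 13552 to 13565). The complex I subunits mt-Nd1, mt-Nd2, mt-Nd3 and mt-Nd5 had 0.85, 1.19, 0.90 and 0.67 with edgeR adjusted p from 0.409 to 0.622, and 0.14, 0.37, 0.18 and 0.12 without high replicate 3. mt-Nd4, mt-Co2 and mt-Co3 had 0.73, 0.33 and 0.57, and 0.21, -0.22 and -0.0062 without it.

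The mitochondrial genes together took 3.67, 8.39 and 5.65% of all counts in high-litter and 3.22, 4.10 and 3.48% in low-litter libraries. The nuclear subunits took 0.711, 1.61 and 0.684% in high-litter and 0.635, 0.634 and 0.809% in low-litter libraries. The ratio of mitochondrial to nuclear subunit counts was 5.17, 5.19 and 8.26 in high-litter and 5.07, 6.47 and 4.30 in low-litter libraries. In high replicate 3 both sums were highest and their ratio lay within the range of the low libraries, while in high replicate 4 the mitochondrial sum was high and the nuclear sum was not. The ratio averaged 6.21 ± 1.78 in high-litter and 5.28 ± 1.10 in the low group (SD, n = 3 each), a difference smaller than the spread within the high group. In a bulk sample, fewer cells of a type and less RNA per cell cannot be told apart. The 95% Wilson intervals were at most 0.0249 percentage points wide for these 2 shares of all counts. They were at most 3.22 points wide for the shares given to nuclear copies, Cox4i2 and Cox6b2, and none was computed for Cox7a2l. These intervals cover counting error only, and not error in how reads were divided between a gene and its copies.

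**Figure D3:**
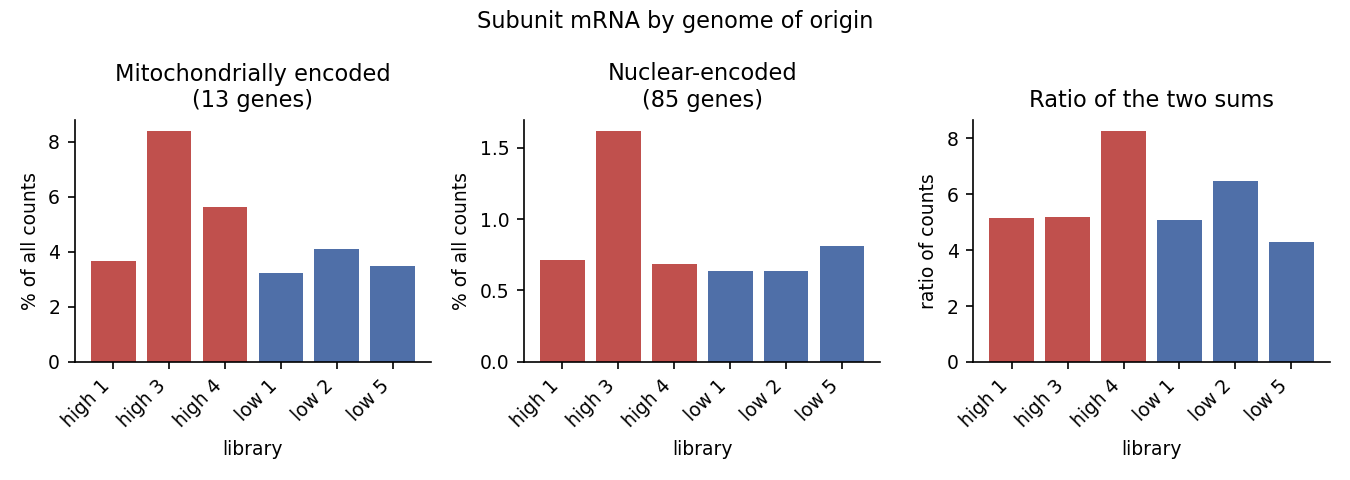
Bars give, for each library, the percentage of all counts from the 13 mitochondrial genes (left) and from the 85 nuclear rows (middle), and the ratio of the mitochondrial to the nuclear sum (right), with high litter size in red and low in blue. High replicate 3 is the highest bar in both shares (8.39 and 1.61%), and high replicate 4 is the highest in the ratio (8.26).

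The split between mitochondrial genes and their nuclear copies differed from gene to gene and from library to library. On GENCODE M21 transcripts, 98.1 to 100% of the 31-base words of mt-Co2, mt-Co3, mt-Atp6, mt-Nd3 and mt-Nd4l, and 62.8% of those of mt-Nd4, were shared with other genes. For each of them 1 copy was identical over all aligned bases. mt-Co1 shared 63.9% of its words, but its copies differed from it at 1 or more bases and had counts equal to 0.0106% of its own. Copies of mt-Co2 were given 79.9, 75.7 and 78.0% of the joint counts in high-litter and 70.4, 66.4 and 82.4% in low-litter libraries. Copies of mt-Co3 were given 43.4, 35.2 and 58.9% in high-litter and 59.5, 37.7 and 57.4% in low-litter libraries, and those of mt-Nd3 65.8, 57.5 and 49.9% against 50.6, 50.9 and 63.9%. For mt-Nd4 it was 10.1, 17.0 and 22.0% in high-litter and 9.61, 9.65 and 12.9% in low-litter libraries, and for mt-Atp6 no more than 4.59%, while the identical copy of mt-Nd4l, Gm10222, had 0 counts.

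With the copies added back, an alternative chosen after the values were seen, the log2 fold change of mt-Co2 was 0.59 in place of 0.33, and that of mt-Co3 0.42 in place of 0.57. mt-Nd4 had 0.84 in place of 0.73, mt-Nd3 0.97 in place of 0.90 and mt-Atp6 0.69 in place of 0.72, and none passed the test. The share of all counts from mitochondrial genes was then 4.33, 9.57 and 6.79% in high-litter and 3.94, 4.73 and 4.19% in low-litter libraries. The value of mt-Co2 was thus higher with the copies added, but the sum cannot tell which reads came from the gene and which from its copies. After merging, the 13 genes ran from 0.42 to 1.36.

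**Figure D4:**
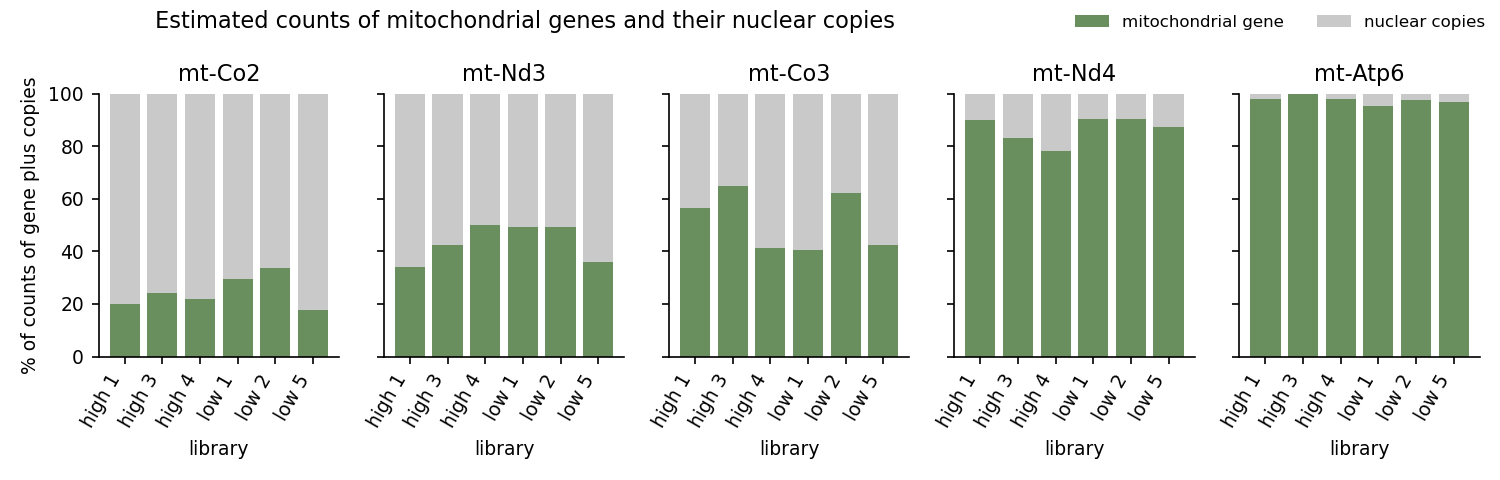
Stacked bars give, for 5 mitochondrial genes in each library (high litter size left of low), the percentage of the joint counts given to the mitochondrial gene (green) and to its nuclear copies (grey). The copies take from 66.4 to 82.4% for mt-Co2 and under 5% for mt-Atp6, although both genes have a copy with identical sequence.

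Genes that work with the chain were described from lists drawn up beside the members, and 0 of these genes passed the edgeR test. Of these lists, which leave out the cell type markers described below, DESeq2 passed 1 gene, Lig3. It gave no adjusted p for Ppara and Slc25a20, so these were not judged by it. The citric acid cycle genes, which feed electrons to complexes I and II, had positive values in 17 of 17 and a median log2 fold change of 0.85, and the electron carriers and other dehydrogenases had 8 of 8 tested and 0.99. Dlat, of pyruvate dehydrogenase, had 96.6, 338.5 and 60.5 CPM in high-litter and 61.1, 62.0 and 63.4 CPM in low-litter libraries (1.41, edgeR adjusted p = 0.366), and Dld, its partner, had 1.02, or 0.34 and 0.33 without high replicate 3. Etfa, which carries electrons from fatty acid oxidation, had 108.9, 608.4 and 122.4 CPM in high-litter and 91.8, 116.4 and 128.3 CPM in low-litter libraries (1.32, edgeR adjusted p = 0.436), and the sulphide dehydrogenase Sqor had 0.78, or 0.042 and 0.48 without it. In both lists high replicate 3 was highest, with centred medians of 1.496 and 1.76.

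Lists of the machinery that builds the chain had lower medians. Assembly factors had positive values in 36 of 46 (median 0.28), with Acad9 at 0.68 and Foxred1 at 1.19, and mitochondrial ribosomal proteins in 55 of 78 (0.18), with Mrpl47 at 0.53 and Mrpl52 at -0.40. Protein import and carriers had 17 of 20 positive (0.24), with the chaperone Hspa9 at 0.93 and the carnitine carrier Slc25a20 at 1.72, and mRNA stability and processing genes 15 of 17 (0.16), with Lrpprc at 0.57 and Fastkd1 at 0.96. Mitochondrial DNA upkeep had 12 of 15 positive (0.31), with the nuclease Mgme1 at 0.61. Without high replicate 3, Acad9 had 0.18, Foxred1 -0.099, Mrpl47 0.33, Hspa9 0.17, Slc25a20 -0.035, Lrpprc 0.18 and Fastkd1 0.47. Lig3, the DNA ligase of mitochondria, was an exception, with 67.5, 45.01 and 47.6 CPM in high-litter and 88.5, 99.1 and 99.7 CPM in low-litter libraries, without overlap (-0.84, SE 0.22, unadjusted p = 0.00637, edgeR adjusted p = 0.206). It passed with DESeq2 (-0.84, adjusted p = 0.0244), where 4.08% of all genes were called lower, and in none of the other alternatives, whose adjusted p ran from 0.107 to 0.579.

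Nuclear regulators of mitochondria had no common sign, with 6 of 12 positive and a median of -0.037. Ppara, a receptor that turns on fatty acid oxidation, had 4.60, 58.1 and 3.22 CPM in high-litter and 1.56, 1.87 and 3.86 CPM in low-litter libraries (3.16, SE 1.19, edgeR adjusted p = 0.321, or 0.68 without high replicate 3). Nfe2l2, of the oxidative stress response, had -0.47. The coactivator Ppargc1a, named after its values were seen, had 3.32, 27.8 and 7.34 CPM in high-litter and 10.2, 10.6 and 4.25 CPM in low-litter libraries (0.62, or -0.64 without it). Nrf1, a factor known to bind promoters of respiratory genes, had 24.1, 28.4 and 19.3 CPM in high-litter and 27.5, 24.4 and 27.2 CPM in low-litter libraries (-0.14), with no library set apart.

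Promoters of the nuclear members were read for the letters that such regulators are known to bind. RefSeq promoters on GRCm38.p6 matched 67 of 84 nuclear symbols, and the 250 bases before each start were searched on both strands. Genes were counted if any of their promoters matched. The NRF1 letters GCGCATGC, or GCATGCGC on the other strand, stood in promoters of 8 member genes (11.9%) and of 3.32% of 17492 genes in all. The ETS letters CCGGAAG stood in 17.9 and 10.2%, the YY1 letters AAGATGGCG in 1.49 and 0.84%, the ERR letters AAGGTCA in 7.46 and 4.18% and TATAAA in 8.96 and 13.7%. The windows of Ndufa6 and Atp5l, accessory subunits of complexes I and V, are shown because their NRF1 letters (in capitals) lie clear of any exon, and both are on the minus strand.
Ndufa6 chr15:82354337-82354404: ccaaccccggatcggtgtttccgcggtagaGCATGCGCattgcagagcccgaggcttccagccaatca
Atp5l chr9:44920945-44920992: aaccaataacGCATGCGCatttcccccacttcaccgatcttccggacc

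Both genes were highest in high replicate 3. Ndufa6 had 55.0, 84.7 and 66.8 CPM in high-litter and 62.0, 60.5 and 66.2 CPM in low-litter libraries (0.13, or -0.048 without that library), among the smallest excesses in that library, and Atp5l had 61.0, 148.3 and 82.6 CPM in high-litter and 63.2, 72.2 and 84.7 CPM in low-litter libraries (0.41, or -0.034 without it). A match describes the letters only.

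Markers of several other cell types moved with the library in which the subunits were highest. The 6 adipocyte markers summed to 3798.5, 26212 and 2645.2 CPM in high-litter replicates 1, 3 and 4 and to 426.75, 3662.2 and 1336.6 CPM in low-litter replicates 1, 2 and 5, and 6 of 6 were highest in high replicate 3. Of 6 brown adipocyte markers, 5 were highest in high replicate 3, Dio2 being highest in low replicate 5. Ucp1, the uncoupler of brown fat, had 6.95, 74.9 and 0.151 CPM in high-litter libraries and 0, 0 and 0.0390 CPM in low-litter libraries. Cox8b and Cox7a1, the brown fat and muscle forms of complex IV subunits that the choice by name left out, had 6.08, 119.3 and 0.654 CPM and 2.20, 13.5 and 1.21 CPM in high-litter libraries, against 0.116, 1.87 and 0.234 CPM and 1.04, 0.746 and 1.01 CPM in low-litter libraries. The 6 erythroid markers, highest in high replicate 3 for 6 of 6, summed to 190, 2346 and 292 CPM in high-litter and 200, 369 and 129 CPM in low-litter libraries. In the other direction, 6 of 6 smooth muscle markers were lowest in high replicate 3, summing to 10083, 3126 and 5211 CPM in high-litter and 7829, 12936 and 15392 CPM in low-litter libraries. Uterine markers, led by Ltf, summed to 704, 923 and 4124 CPM in high-litter and 15041, 5724 and 4034 CPM in low-litter libraries, while the Hox genes Hoxa10 and Hoxa11 were highest in high replicate 1 (293 and 205 CPM). Striated muscle markers summed to 91.3, 27.5 and 19.5 CPM in high-litter and 24.3, 79.1 and 145 CPM in low-litter libraries, and oviduct markers to 53.0, 168 and 1583 CPM against 76.1, 59.3 and 476 CPM. No marker passed the edgeR test. DESeq2 passed Cidea and Cox8b as higher in high litter size (adjusted p = 0.00224 and 0.0320), where 2.15% of all genes were called higher. It passed Dio2 and Actg2 as lower (adjusted p = 0.0210 and 0.0434), where 4.08% were called lower, and gave no adjusted p for some markers. The part of these cells in the subunit values was not tested.

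Marker and subunit values of the remaining 5 libraries were set side by side, and their association was not tested. Adipocyte sums ran from 426.75 CPM in low replicate 1 to 3798.5 CPM in high replicate 1. In these 2 libraries the centred nuclear medians were -0.27 and -0.26, and the centred medians of brown adipocyte markers -0.73 and 0.46. Luteal and steroidogenic markers were highest in high replicate 4 (10376 CPM), which was second highest for 11 of 13 mitochondrial members and lowest for 33 of 81 nuclear members. Next was low replicate 5 (3476 CPM), which was second highest for 51 of 81 nuclear members, and for 0 of 13 mitochondrial members, of which 3 were lowest in it. These counts of second place have no share over all genes beside them, and the part of steroid-making cells in those values was likewise not tested.

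**Figure D5:**
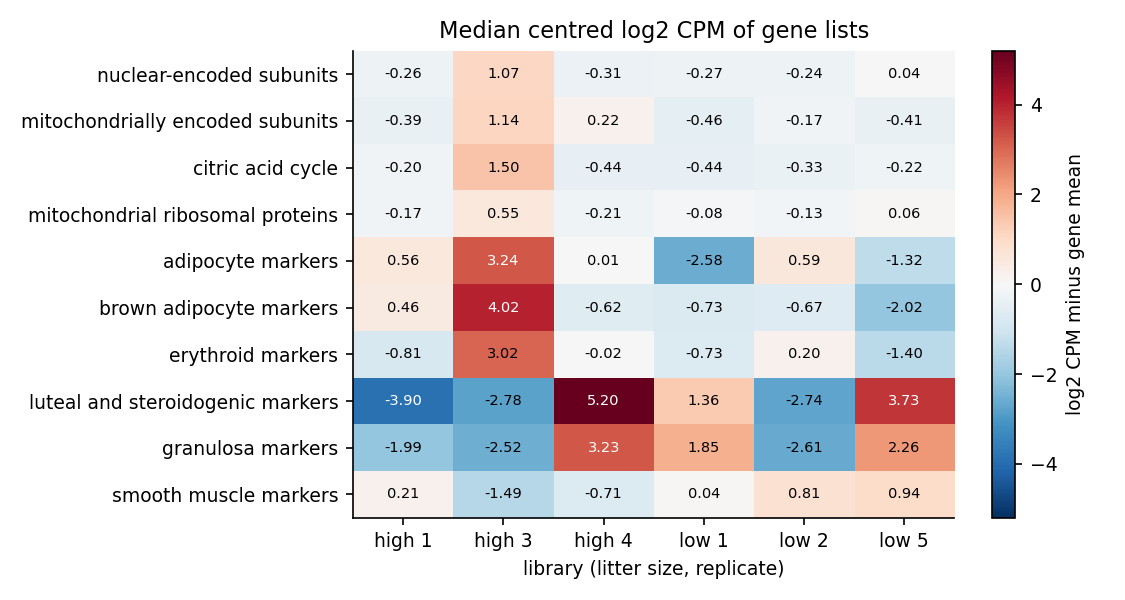
Colours and numbers give the median, over the tested genes of each list, of log2 CPM minus the gene's mean over the 6 libraries, with high litter size columns left of low. High replicate 3 is the highest column for both groups of subunits (1.07 and 1.14), the citric acid cycle (1.496), adipocyte (3.24), brown adipocyte (4.02) and erythroid markers (3.02), and it is low for luteal (-2.78) and granulosa markers (-2.52).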

How the data were processed

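RNA of 3 high and 3 low litter size samples, all labelled as ovary, was grouped by the litter size label. The authors deposited estimated counts per gene, taken here as kallisto estimates that were rounded, which is not stated. Per the submitters' processing notes, Trim Galore, kallisto and DESeq2 were used with GRCm38. Their versions and the annotation release are not given in the sources used here. Reads are divided between similar transcripts by kallisto, so members with near-identical copies are uncertain, and the strand setting is not given either.

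Counts were filtered with filterByExpr (minimum count 10, minimum total 15), TMM-normalized and tested over 16455 genes by edgeR 4.0.16 (quasi-likelihood, R 4.3.3) for high minus low litter size, and Benjamini-Hochberg adjusted p under 0.05 passed. No covariate was fitted. Centred values are log2 CPM with a prior count of 2. A check of the test on simulated counts has no outcome reported here, so it lends no support to these results. Alternatives were other scalings, filters, DESeq2 1.42.0, limma 3.58.1 voom, other edgeR tests, each library left out and, chosen after the values were seen, the counts of pseudogene copies added to their gene and 3 libraries left out together. Coordinates, transcript lengths (the median per gene, for CPM per kb) and shared 31-base words are from GENCODE M21.

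Members and lists were chosen with earlier results of these data known. Genes named were core subunits, paralogues, the 3 members of smallest p and both extremes of fold change per complex, members without overlap, all mitochondrial genes and the 2 genes of smallest p per list. Of the genes so named, 1 is not reported here. Total counts ran from 17620903 to 24758222, a 1.41-fold range.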

Additional observations from a re-analysis of the deposited data

How the results depend on the processing

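The count of members passing was 0 in every alternative with a test, while the count of all genes passing was 1 with all libraries, 1026 with DESeq2, 631 with the likelihood ratio test, 3 with limma voom, 2 with library size scaling, 0 with protein-coding genes only and 0 to 1 with a library left out. No paired analysis was possible because just 1 replicate number occurs in both groups. The median log2 fold change of nuclear members ran from -0.13 (without high replicate 3) to 0.71 with a library left out, was -0.30 without the 3 libraries lowest in ovarian markers, and stayed between 0.30 and 0.47 under the other settings. That of mitochondrial members ran from 0.26 to 1.03, was 0.61 without those 3 libraries, and stayed between 0.65 and 0.84. Lig3 passed with DESeq2 (adjusted p = 0.0244), and the cause was not tested. Ndufa4 turned negative with upper-quartile scaling (-0.0027), library size scaling (-0.023) and limma voom (-0.034), and Cox7b with limma voom (-0.0050), and the cause was not tested. Values that turned sign with a library left out had these lowest and highest values over the 6 such fits: Sdha -0.14 to 1.70, Sdhb -0.32 to 0.97, Sdhd -0.21 to 0.57, Uqcrc1 -0.088 to 1.25, Cyc1 -0.036 to 1.42, Cox5a -0.31 to 0.75, Ndufa4 -0.42 to 0.25, Cox4i2 -0.12 to 0.71, Cox6a1 -0.24 to 0.92, Cox6b1 -0.43 to 0.67, Cox7a2 -0.29 to 0.55, Cox7a2l -0.18 to 0.019, Cox7b -0.41 to 0.28, Cox8a -0.30 to 0.72, Atp5g3 -0.28 to 0.60, Uqcrh -0.12 to 0.32, mt-Co2 -0.22 to 0.61, mt-Co3 -0.0062 to 1.02, Foxred1 -0.099 to 1.56, Slc25a20 -0.035 to 2.13, Ppargc1a -0.64 to 1.05 and Atp5g1 -0.66 to 0.14. The turn came without high replicate 3, except for Ndufa4 (also without low replicate 1) and Atp5g1 (without low replicate 5).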
